A study of Rattus norvegicus with 8 samples.

Results

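The expression of genes of cholesterol synthesis and its control was examined in reporter PBMCs (peripheral blood mononuclear cells, a mix of lymphocytes and monocytes) after culture in plasma of 4 kinds. The group holds 8 named genes. They are Hmgcs1, Idi1, Fdft1, Sqle, Lss and Cyp51, which encode enzymes of the pathway, and Srebf2 and Insig1, which encode its regulators. Every probe set annotated to exactly 1 of these symbols was taken, which gave 12 probe sets of 7 genes out of 31042 probe sets and 14217 genes on the array. Hmgcs1 had no such probe set and was not analysed here. None of the 7 measured genes encodes an uptake receptor.

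The cells were taken from a pair of healthy Brown Norway donors, named BN1 and BN2, and each of 8 cultures was read on its own Affymetrix rat array. For 5% IH plasma, blood was pooled from 5 adult male Sprague-Dawley rats that had intermittent hypoxia (IH) at 5% oxygen daily from postnatal day (PD) 2 to 6, and for 10% IH plasma from 3 such rats given 10% oxygen. Control plasma was a pool from 8 male Sprague-Dawley rats handled in the same way at 21% oxygen. All Sprague-Dawley rats were weaned at PD 22 and bled as adults at PD114, having fasted overnight. Autologous plasma came from the Brown Norway donors themselves, at about 180 days of age. Every culture held 500000 cells in medium with 20% plasma for 6 h, and no hypoxia was applied to the cells. Since each Sprague-Dawley plasma was a single pool, the 2 arrays of its group differ by reporter donor, culture and array at once. They show nothing of the spread among plasma animals. Sprague-Dawley and autologous plasma differ at once in strain, age, housing site and origin from the cell donors, and perhaps in pooling. An overnight fast is stated for the Sprague-Dawley rats alone. These differences cannot be told apart. Labels of the autologous cultures mention both donors, which leaves the match of donor cells and donor plasma uncertain. Sterol or lipoprotein concentrations of the plasmas were not among the values used here.

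Cells make cholesterol from acetyl-CoA through mevalonate, isoprenoids, squalene and lanosterol. When sterols in the membrane of the endoplasmic reticulum run low, the escort protein SCAP carries SREBP-2, the product of Srebf2, to the Golgi, where it is cleaved and freed to turn on the genes of synthesis and of lipoprotein uptake. When sterols are plentiful, INSIG proteins hold SCAP and SREBP-2 back, and Insig1 is itself a target of SREBP-2. Transcripts of the pathway therefore serve in many cell types as a readout of cellular sterol supply.

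SREBP-2 is known to bind sterol regulatory elements beside boxes for the factor NF-Y, and the promoters were searched for both because several genes of the pathway differed in the same direction between plasmas. RefSeq promoters of build GRCr8 were at hand for 6 of the 8 genes, Hmgcs1 included, but not for Sqle and Fdft1. In the 250 bases before the start, the NF-Y box CCAAT was present on either strand in 5 of 6 promoters (83.3%), against 34.0% of 33469 promoters of the same length. Over the synthesis enzymes as a whole, named ones included, it was present in 13 of 16 (81.2%). These hold enzymes called against autologous plasma, such as Fdps and Msmo1, and enzymes called in no comparison, such as Mvk and Nsdhl. A strict form of the element, TCACNCCAC on either strand, was present in 0 of 6, against 0.974% of all promoters. With so low a share over all promoters, a count of 0 of 6 cannot tell whether these genes differ from others. The stretches that hold the boxes in the 4 measured genes with one are printed 5′ to 3′ on the strand of the gene, with capitals for ATTGG, which is CCAAT read from the other strand. They lie at chr17:66547535-66547610 (minus strand) for Idi1, chr20:12118288-12118332 (minus strand) for Lss, chr4:8057938-8057982 (minus strand) for Insig1 and chr7:115543158-115543202 (plus strand) for Srebf2.
Idi1: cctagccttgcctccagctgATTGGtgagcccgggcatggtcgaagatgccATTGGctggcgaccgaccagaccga
Lss: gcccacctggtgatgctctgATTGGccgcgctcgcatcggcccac
Insig1: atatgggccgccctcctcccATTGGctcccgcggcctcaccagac
Srebf2: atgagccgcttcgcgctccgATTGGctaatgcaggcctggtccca
Idi1 carries a pair of boxes, at 66 to 62 and 35 to 31 bases before the start. The Cyp51 promoter held neither motif in this window, which says only that these letters are not there.

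Values are log2 signals as deposited, normalized together by the authors, and array medians lay between 5.53 and 5.56. A gene is given by its brightest probe set, with the second probe set of 5 genes given separately. The study's criterion, a Rank Product p under 0.05 with a ratio beyond 1.2-fold, was applied in each of 6 comparisons. The same contrasts were fitted in limma, with p-values adjusted by the Benjamini-Hochberg method over the whole array. With 2 arrays against 2, an exact permutation test of a single gene cannot go below p = 0.333 (2-sided). Markers of T cells lay above the 75th percentile of every array in 5 of 5 genes, and 0 of 4 neutrophil markers did. The T cell markers averaged 10.68 to 10.82 on all 8 arrays, and 0 of 5 met the criterion in any comparison. Red cell transcripts such as Hbb were also bright, with 3 of 3 above that percentile. Among the other marker lists, the criterion called in comparisons with autologous plasma only Cd79b of 3 B cell, Gzmb of 5 NK cell, Ppbp of 4 platelet, S100a8 and Camp of 4 neutrophil and Slc4a1 of 3 red cell markers.

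The monocyte markers separated the autologous arrays from all others. Their mean log2 level was 8.49 to 8.75 with 5% IH plasma, 8.54 to 8.57 with 10% IH plasma and 8.32 to 8.57 with control plasma, but 5.50 to 5.93 with autologous plasma. All 5 of 5 met the criterion and passed limma against autologous plasma, with median log2 ratios of 2.58 for 5% IH, 2.65 for 10% IH and 2.45 for control plasma. Over all genes, 6.24%, 5.39% and 6.16% were higher by the criterion and 2.54%, 1.79% and 2.21% by limma, in that order. Cd14, the lipopolysaccharide co-receptor of monocytes, had 10.21 and 10.40 with 5% IH plasma, 9.93 and 9.94 with 10% IH plasma, 9.78 and 10.03 with control plasma, and 4.48 and 4.78 with autologous plasma. The marker ratios to autologous plasma differed widely, with 5% IH plasma from 0.98 for Cd68 to 5.68 for Cd14. Fewer monocytes and lower levels of single marker transcripts per monocyte cannot be told apart in these cultures. The difference in monocyte markers moves with every comparison of a Sprague-Dawley plasma with autologous plasma given here. Its part in the values of the cholesterol genes was not tested.

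On its brightest probe set, each cholesterol gene had its highest group mean with 5% IH plasma and its lowest with autologous plasma. This held in 7 of 7 measured genes, an order that 10.3% of all genes had. The second probe sets of Fdft1, Lss and Srebf2 did not have this order, and those of Idi1 and Cyp51 did. Against autologous plasma, 6 of 7 genes met the criterion as higher with 5% IH plasma, all but Srebf2, where 6.24% of all genes did so and 4.18% were lower. With 10% IH plasma 3 of 7 did, namely Idi1, Sqle and Cyp51, against 5.39% of all genes higher and 3.62% lower. With control plasma 4 of 7 did, the same 3 and Fdft1, against 6.16% of all genes higher and 3.97% lower. The median log2 ratio over the 7 genes was 0.35 for 5% IH, 0.25 for 10% IH and 0.27 for control plasma, and over all genes -0.011, -0.006 and -0.007 in that order. All 6 Sprague-Dawley arrays lay above both autologous arrays in 5 of the 7 genes, a pattern of 9.1% of all genes, with Lss and Srebf2 as the exceptions. The 3 comparisons share the autologous arrays, so they are not independent of each other. By limma, 3 of 7 genes passed an adjusted p of 0.05 with 5% IH plasma (2.54% of all genes higher), 0 of 7 with 10% IH plasma (1.79%) and 1 of 7 with control plasma (2.21%). At an unadjusted p under 0.05, limma counted 6, 4 and 5 of the 7 as higher in the same order, against 6.71%, 5.69% and 6.53% of all genes. Without the 5% IH BN1 array, 3 genes met the criterion with 5% IH plasma. The limma count with 5% IH plasma was 1 without the 5% IH BN1, 5% IH BN2 or autologous BN2 array, and that with control plasma was 0 without the control BN1, control BN2 or autologous BN2 array.

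**Figure D1:**
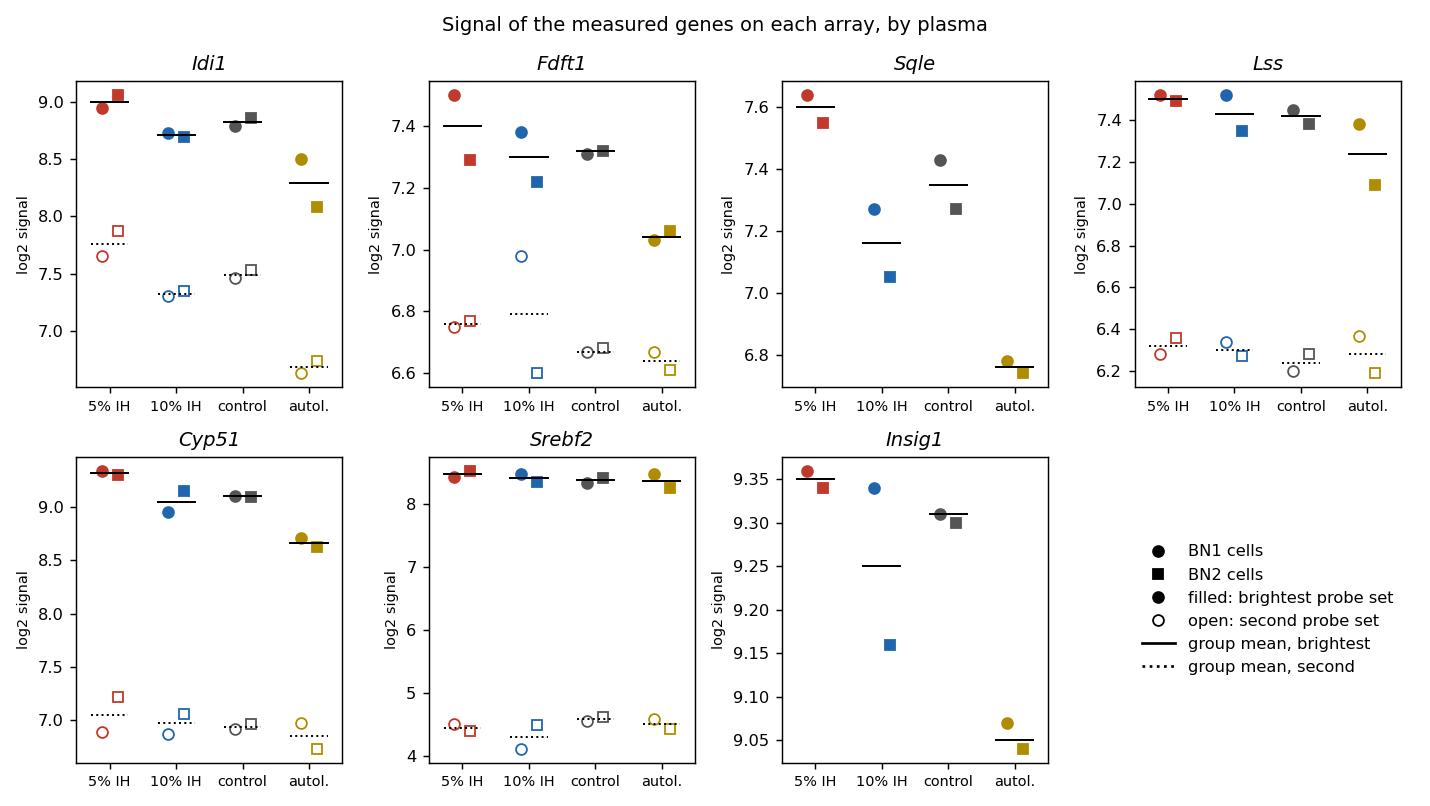
Log2 signal of the 7 measured genes on each of the 8 arrays, by plasma (5% IH, 10% IH, control, autologous), with circles for BN1 and squares for BN2 cells, filled symbols for the brightest and open symbols for the second probe set, and lines for group means. On the brightest probe sets, the autologous arrays are lowest for Idi1, Fdft1, Sqle, Cyp51 and Insig1, and both 5% IH arrays are highest for Idi1, Sqle and Cyp51. The second probe sets of Fdft1 and Cyp51 do not show this order.

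Sqle encodes squalene epoxidase, a rate-limiting enzyme of the sterol branch. It had log2 levels of 7.64 and 7.55 with 5% IH plasma, 7.27 and 7.05 with 10% IH plasma, 7.43 and 7.27 with control plasma, and 6.78 and 6.74 with autologous plasma, with BN1 before BN2 in each pair here and below. The autologous pair stood apart at the bottom and the 5% IH pair at the top. Against autologous plasma the log2 ratio was 0.84 with 5% IH plasma (SE 0.106, 1.79-fold, limma adjusted p = 0.00333), 0.40 with 10% IH plasma (1.32-fold, limma adjusted p = 0.185) and 0.59 with control plasma (1.51-fold, limma adjusted p = 0.0267). All 3 met the criterion. Leaving out 1 array at a time gave 0.79 to 0.89 for 5% IH and 0.51 to 0.67 for control plasma, where the criterion was met each time. For 10% IH plasma it gave 0.30 to 0.51, and the criterion was lost without the 10% IH BN1 array (0.30).

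Idi1 encodes isopentenyl diphosphate isomerase, which makes the allylic unit that isoprenoid chains start from. Its brightest probe set had 8.95 and 9.06 with 5% IH plasma, 8.73 and 8.69 with 10% IH plasma, 8.79 and 8.86 with control plasma, and 8.50 and 8.08 with autologous plasma. The 4 groups did not overlap, and the autologous arrays differed from each other more than any other pair. Against autologous plasma the log2 ratio was 0.71 with 5% IH plasma (SE 0.132, limma adjusted p = 0.0289), 0.42 with 10% IH plasma (limma adjusted p = 0.309) and 0.53 with control plasma (limma adjusted p = 0.117). In BN2 cells these ratios were 0.97, 0.61 and 0.78, and in BN1 cells 0.45, 0.22 and 0.29. The call for 10% IH plasma was lost without the autologous BN2 array (0.21). With donor as a block in the fit, 2 genes passed limma with 5% IH plasma, Sqle and Cyp51, and Idi1 did not. The second Idi1 probe set showed larger ratios, with levels of 7.65 and 7.87 for 5% IH, 7.30 and 7.35 for 10% IH, 7.46 and 7.53 for control and 6.63 and 6.74 for autologous plasma. Its ratio to autologous plasma was 1.08 with 5% IH plasma (SE 0.103, 2.11-fold, limma adjusted p = 0.000544), 0.64 with 10% IH plasma (1.56-fold, limma adjusted p = 0.0176) and 0.81 with control plasma (1.75-fold, limma adjusted p = 0.0039). It was thus the single member probe set to pass limma in all 3 comparisons.

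Cyp51 encodes lanosterol 14α-demethylase, the first enzyme after the sterol ring is closed. Its brightest probe set is of the _s_at type, whose probes can match more than 1 transcript. It had 9.34 and 9.30 with 5% IH plasma, 8.95 and 9.15 with 10% IH plasma, 9.10 and 9.09 with control plasma, and 8.71 and 8.62 with autologous plasma. The 5% IH pair was highest, the autologous pair lowest, and the 10% IH arrays lay on both sides of the control arrays. The log2 ratio to autologous plasma was 0.65 with 5% IH plasma (SE 0.0967, 1.57-fold, limma adjusted p = 0.00811), 0.39 with 10% IH plasma (limma adjusted p = 0.155) and 0.43 with control plasma (limma adjusted p = 0.0765). The criterion was lost for 10% IH plasma without the 10% IH BN2 array (0.29). The second probe set gave 0.21, 0.12 and 0.09 in the same 3 comparisons and did not meet the criterion. With the mean of both probe sets the ratio was 0.43 for 5% IH plasma, and those of 0.25 for 10% IH and 0.26 for control plasma no longer met it.

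Fdft1, squalene synthase, commits isoprenoids to sterols. It had 7.50 and 7.29 with 5% IH plasma, 7.38 and 7.22 with 10% IH plasma, 7.31 and 7.32 with control plasma, and 7.03 and 7.06 with autologous plasma. All Sprague-Dawley arrays lay above the autologous pair, but the Sprague-Dawley groups overlapped. The ratio to autologous plasma was 0.35 with 5% IH plasma (SE 0.102, limma adjusted p = 0.195), 0.25 with 10% IH plasma, which missed the criterion, and 0.27 with control plasma (limma adjusted p = 0.383). The 5% IH call was lost without the 5% IH BN1 array (0.25), and the control call without any 1 of its 4 arrays (0.26 to 0.29) and on median centring (0.26). With the mean of both probe sets neither ratio met the criterion (0.23 for 5% IH and 0.15 for control plasma). The second Fdft1 probe set gave 0.12, 0.15 and 0.03 and met the criterion in none of the 3.

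Lss, lanosterol synthase, closes the sterol ring. It had 7.52 and 7.49 with 5% IH plasma, 7.52 and 7.35 with 10% IH plasma, 7.45 and 7.38 with control plasma, and 7.38 and 7.09 with autologous plasma. The autologous BN1 array reached into the range of the 10% IH and control arrays. The ratio to autologous plasma was 0.27 with 5% IH plasma (SE 0.116, limma adjusted p = 0.48), 0.20 with 10% IH plasma and 0.18 with control plasma. The first met the criterion at its edge and lost it without the 5% IH BN1 array (0.25), the 5% IH BN2 array (0.29) or the autologous BN2 array (0.12), on quantile normalization or median centring again (0.26 in both), with dim probe sets filtered out (0.27) and with the mean of both probe sets (0.15). Its second probe set gave 0.04, 0.02 and -0.04. Without the autologous BN1 array the ratio was 0.34 for 10% IH and 0.33 for control plasma, and both then met the criterion.

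Of the regulators, Insig1 was called in 1 comparison and Srebf2 in none on its brightest probe set. Insig1, which retains SREBP-2 in the endoplasmic reticulum, had 9.36 and 9.34 with 5% IH plasma, 9.34 and 9.16 with 10% IH plasma, 9.31 and 9.30 with control plasma, and 9.07 and 9.04 with autologous plasma. Every Sprague-Dawley array was above the autologous pair, at log2 ratios of 0.30 with 5% IH plasma (SE 0.0928, limma adjusted p = 0.243), 0.20 with 10% IH plasma and 0.25 with control plasma. The 5% IH ratio met the criterion and lost it without the 5% IH BN1 array (0.29), the 5% IH BN2 array (0.31) or the autologous BN2 array (0.28). Srebf2, which encodes SREBP-2, had 8.43 and 8.53 with 5% IH plasma, 8.48 and 8.35 with 10% IH plasma, 8.33 and 8.42 with control plasma, and 8.47 and 8.26 with autologous plasma. The Srebf2 arrays of every plasma overlapped with those of autologous plasma, while both 5% IH arrays lay above both control arrays. Its ratios to autologous plasma were 0.11 with 5% IH plasma, 0.05 with 10% IH plasma and 0.01 with control plasma (SE 0.104 in each), none of which met the criterion. Of 5 other regulators measured, among them Scap and Insig2, 0 met the criterion in any of the 6 comparisons.

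**Figure D2:**
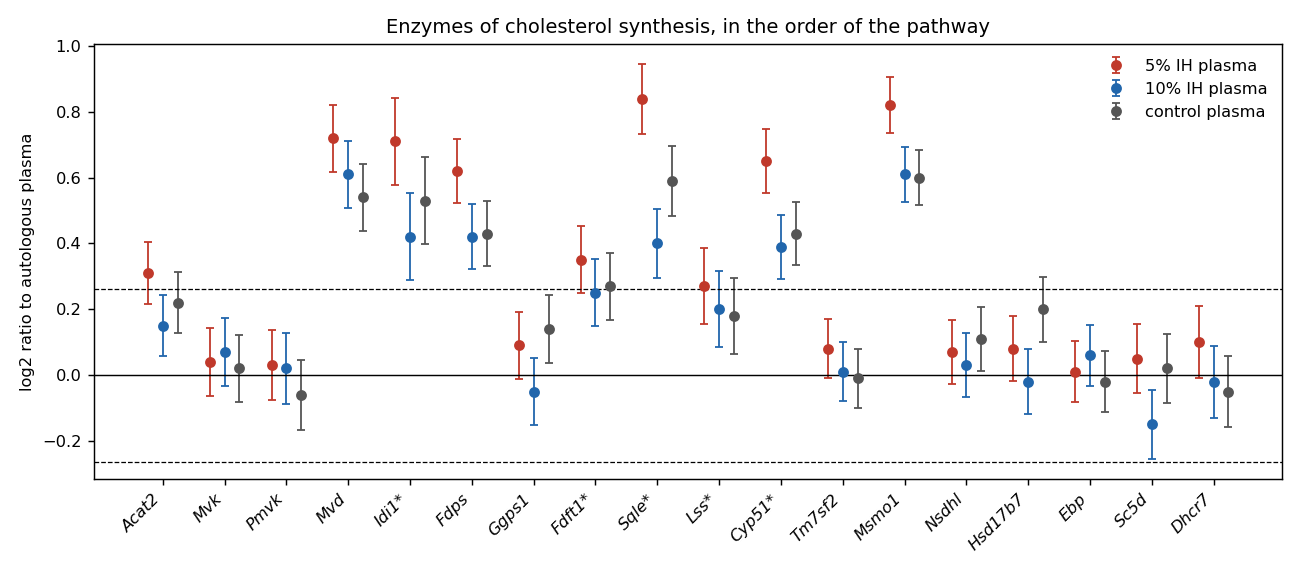
Log2 ratio of each Sprague-Dawley plasma to autologous plasma for the 18 measured enzymes of cholesterol synthesis, in pathway order, with asterisks on the named genes, bars for limma's standard error and dashed lines at the criterion's 1.2-fold. Mvd, Idi1, Fdps, Sqle, Cyp51 and Msmo1 lie above the upper line with all 3 plasmas, and 9 enzymes lie above it with none.

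The comparison of 5% IH with 10% IH plasma, between Sprague-Dawley plasmas of equal age and strain, gave higher levels with 5% IH plasma in 3 of 7 genes by the criterion, Sqle, Idi1 and Cyp51, where 2.63% of all genes were higher and 1.85% lower. The same 3 genes had both 5% IH arrays above both 10% IH arrays (17.3% of all genes) and above all other 6 arrays (2.98% of all genes). The median log2 ratio over the 7 genes was 0.10, against -0.001 over all genes. By limma 0 of 7 passed an adjusted p of 0.05, as did 0.0% of all genes, and 2 of 7 had an unadjusted p under 0.05, against 2.42% of all genes in that direction. For Sqle the log2 ratio was 0.43 (SE 0.106, 1.35-fold, unadjusted p = 0.00282 and adjusted p = 0.981 by limma), with 0.37 in BN1 and 0.49 in BN2 cells. It met the criterion with any 1 array left out, at 0.33 to 0.54. For Idi1 it was 0.29 (SE 0.132, limma adjusted p = 0.981), with 0.23 in BN1 and 0.36 in BN2 cells, and 0.44 on the second probe set, which met the criterion too. The Idi1 call was lost without the 5% IH BN2 array (0.24) or the 10% IH BN2 array (0.28), and with limma's unadjusted p (0.0534) in place of the Rank Product. For Cyp51 it was 0.27 (SE 0.0967, limma adjusted p = 0.981), with 0.38 in BN1 and 0.15 in BN2 cells, and the call was lost without the 5% IH BN1 array (0.25), the 5% IH BN2 array (0.28) or the 10% IH BN1 array (0.17), and with the mean of both probe sets (0.18). Fdft1, Insig1, Lss and Srebf2 had ratios of 0.07 to 0.10 and did not meet the criterion. Over the monocyte markers the median log2 ratio was 0.02 in this comparison and 1 of 5 was called, Cd14 at 0.37. Among 4 platelet markers Itga2b was lower with 5% IH plasma, at -0.27. The part of either in the values of the cholesterol genes was not tested.

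Against control plasma, none of the 7 genes met the criterion with 5% IH plasma (1.46% of all genes higher, 1.04% lower) or with 10% IH plasma (2.04% higher, 2.26% lower). By limma 0 of 7 passed an adjusted p of 0.05 in either comparison, as did 0.0% of all genes in each. At an unadjusted p under 0.05, limma counted 2 of 7 with 5% IH plasma, Sqle and Cyp51 (1.15% of all genes higher), and 0 of 7 with 10% IH plasma, against 4.12% of all genes in either direction. With 5% IH plasma both arrays lay above both control arrays in 6 of 7 genes (13.2% of all genes), all but Fdft1. The log2 ratio of Sqle was 0.25 (0.22 in BN1 and 0.28 in BN2 cells), that of Cyp51 0.22 (0.24 and 0.21) and that of Idi1 0.18 (0.17 and 0.20), with limma adjusted p = 1 for each. The second Idi1 probe set, at 0.27, met the criterion. The median over the 7 genes was 0.11. With 10% IH plasma the log2 ratio of Sqle was -0.19 (-0.16 and -0.22) and that of Idi1 -0.11 (-0.06 and -0.17), and in these 2 of 7 genes both 10% IH arrays lay below both control arrays (17.1% of all genes), although the 10% IH BN1 and control BN2 arrays of Sqle round to the same 7.27. The other 5 ratios were -0.06 to 0.04, the median over the 7 was -0.04, and 10% IH means were below control means in 5 of 7 genes. Leaving out 1 array brought Sqle past the criterion with 5% IH plasma, without the 5% IH BN2 array (0.30) or the control BN1 array (0.33), and with 10% IH plasma, without the 10% IH BN1 array (-0.30) or the control BN2 array (-0.27). The dim second Srebf2 probe set, at the 33.6th percentile of mean level, met the criterion as lower with 10% IH plasma (-0.29), whereas the brightest had 0.04. Both IH comparisons share the control arrays. Monocyte markers had a median log2 ratio of 0.13 with 5% IH plasma, with Cd14 (0.40) and Itgam (0.28) called of 5, and of 0.11 with 10% IH plasma, with 0 of 5 called. Among 3 red cell markers Alas2 was higher with 10% IH than with control plasma, at 0.31. The part of these markers in the values of the cholesterol genes was not tested.

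**Figure D3:**
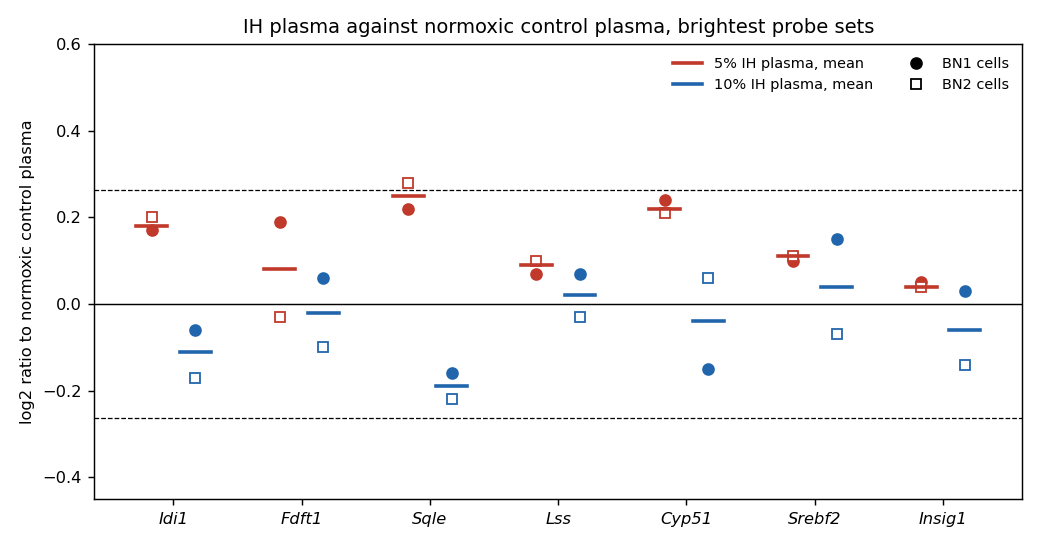
Log2 ratio of 5% IH and 10% IH plasma to control plasma for the 7 genes, with circles for BN1 and squares for BN2 cells, short lines for group means and dashed lines at 1.2-fold in each direction. Sqle and Idi1 lie above 0 in both donors with 5% IH plasma and below 0 in both with 10% IH plasma.

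The remaining enzymes of the pathway were split. Of 13 other synthesis enzymes measured, 4 were higher by the criterion with 5% IH than with autologous plasma (Acat2, Mvd, Fdps and Msmo1), and 3 with each of 10% IH and control plasma (Mvd, Fdps and Msmo1). The shares over all genes were 6.24% for 5% IH, 5.39% for 10% IH and 6.16% for control plasma. None of the 13 was called between Sprague-Dawley plasmas. Their median log2 ratio for 5% against 10% IH plasma was 0.11, beside 0.10 for the 7 genes. The ratio was above 0 in 11 of 13 (7064 of 14217 genes). Both 5% IH arrays lay above both 10% IH arrays in 6 of 13 (17.3% of all genes). To control plasma the median of the 13 was 0.08 with 5% IH and 0.01 with 10% IH plasma. The median log2 ratio of the 13 to autologous plasma was 0.08, 0.03 and 0.11 for 5% IH, 10% IH and control plasma. Msmo1, the sterol methyl oxidase that acts after Cyp51, had 8.82 and 8.89 with 5% IH plasma, 8.67 and 8.63 with 10% IH plasma, 8.63 and 8.66 with control plasma, and 8.01 and 8.06 with autologous plasma. Its ratios to autologous plasma were 0.82, 0.61 and 0.60 (limma adjusted p = 0.000939, 0.00723 and 0.00704). Mvd, which makes the isopentenyl diphosphate that Idi1 converts, gave 0.72, 0.61 and 0.54 (limma adjusted p = 0.00675, 0.022 and 0.0354). Fdps, which joins these units into farnesyl diphosphate, gave 0.62, 0.42 and 0.43 (limma adjusted p = 0.0128, 0.123 and 0.0837), and its 10% IH call was lost without the autologous BN2 array (0.31). Acat2, a thiolase at the start of the pathway, gave 0.31 with 5% IH plasma, and this call was lost without the 5% IH BN1 array (0.22) or the autologous BN2 array (0.29).

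Of 7 genes of cholesterol uptake and intracellular transport, Lrp1, Soat1 and Stard4 were higher with each Sprague-Dawley plasma than with autologous plasma. Npc2 was higher with 10% IH plasma alone (0.29, lost without the 10% IH BN1 (0.29), 10% IH BN2 (0.28) or autologous BN2 (0.26) array). Over all genes, 6.24%, 5.39% and 6.16% were higher with 5% IH, 10% IH and control plasma. Lrp1, a receptor for lipoprotein remnants and other ligands that macrophages also carry, had log2 ratios of 1.19 with 5% IH, 1.20 with 10% IH and 1.08 with control plasma (limma adjusted p = 0.00495, 0.00641 and 0.0106), and 0.61, 0.61 and 0.56 with the mean of its probe sets. Soat1, which esterifies cholesterol, had 0.71, 0.76 and 0.67, and 0.31, 0.34 and 0.19 with that mean, where the control ratio no longer met the criterion. Stard4, a sterol carrier and known SREBP-2 target, had 0.35, 0.29 and 0.34. The Stard4 call was lost for 10% IH without the 10% IH BN2 (0.24) or autologous BN2 (0.29) array and for control plasma without the control BN1 array (0.29), and for all 3 plasmas with the mean of its probe sets (0.25, 0.19 and 0.20). Mylip, which encodes a ubiquitin ligase that limits lipoprotein uptake, had 9.36 and 9.43 with 5% IH plasma and 9.82 and 9.68 with 10% IH plasma. It was the only gene of the list called between Sprague-Dawley plasmas, lower with 5% IH plasma at a log2 ratio of -0.35 (SE 0.129, limma adjusted p = 0.981).

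The profile of the 7 genes over the 8 arrays, the mean of their centred log2 levels, was 0.21 and 0.18 with 5% IH plasma, 0.06 and -0.04 with 10% IH plasma, 0.06 and 0.05 with control plasma, and -0.19 and -0.34 with autologous plasma. The autologous arrays set most of its range, and its order among the Sprague-Dawley plasmas puts 5% IH first. The monocyte markers, centred in the same way, had 0.66 and 0.92, 0.71 and 0.74, 0.48 and 0.73, and -2.33 and -1.91 in the same order of plasmas. As a description over 8 arrays that share plasma pools and donors, each gene's Pearson r with the mean of the other 6 was 0.853 to 0.947, save for Srebf2 at 0.536. Of 8523 other genes, those most like the profile were RT1-T24-3 (r = 0.989), Fdps (0.984), Tns3 (0.978), Fut4 (0.976), Cst7 (0.975), P2ry6 (0.974), Chac1 (0.973) and Tle3 (0.973). Mvd ranked 33 (r = 0.947), Msmo1 ranked 52 (r = 0.937) and Cd14 ranked 223 (r = 0.893). A low level on both autologous arrays weighs heavily in this measure but does not suffice for a high score. Abcg1 and Soat1 were also lowest on both autologous arrays, with r = 0.444 and 0.663.

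**Figure D4:**
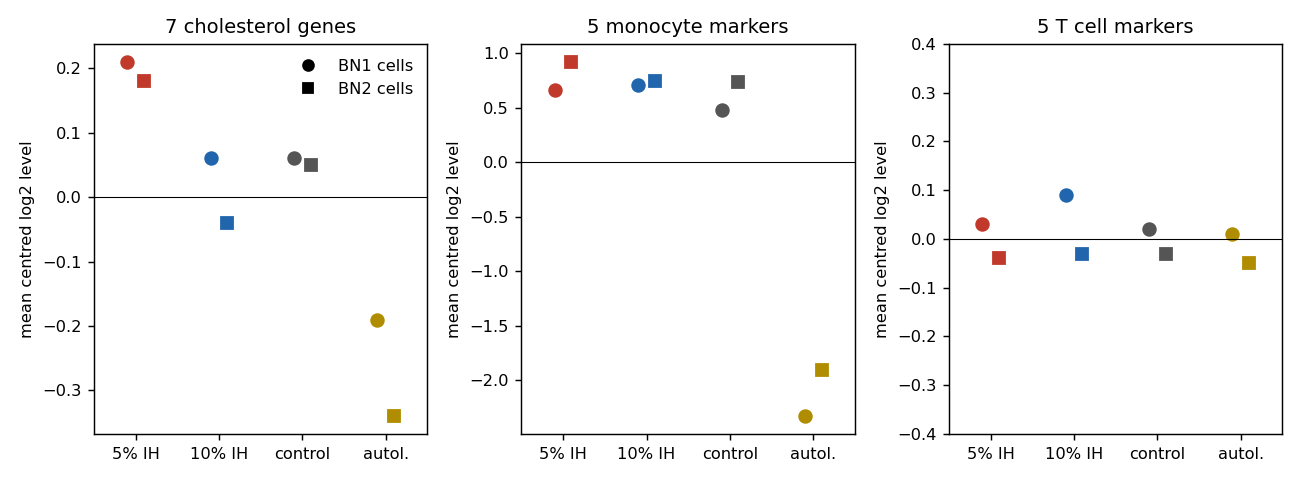
Mean centred log2 level on each array of the 7 cholesterol genes, 5 monocyte markers and 5 T cell markers, by plasma (5% IH, 10% IH, control, autologous), with circles for BN1 and squares for BN2 cells and a vertical scale of its own in each panel. The cholesterol genes and the monocyte markers are lowest on the autologous arrays, and the T cell markers stay within 0.09 of 0 on all 8.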

How the data were processed

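The authors hybridized RNA of 8 PBMC cultures (2 reporter donors in each of 4 plasmas) to Affymetrix rat arrays. Their log2 values came from Expression Console by Robust Multichip Analysis, a method of background correction, quantile normalization and summary over probes. Partek appears in the submitters' notes without a stated role or version. The deposited log2 values, 1.66 to 14.3 with 0 missing, were used with no further scaling. A quantile step gives all arrays 1 distribution, so a change shared by most genes cannot be seen. The number of arrays limits the precision. Of 31042 probe sets, 20826 had 1 gene symbol, 436 several and 9780 none in the annotation used.

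Groups were the 4 plasmas. By the sample titles, a replicate number stands for a reporter donor, the same animal in every group. For the autologous cultures this is less certain, since their labels mention both donors. Deviations of same-numbered arrays correlated at 0.165 for 5% with 10% IH, 0.24 for 5% IH with control and 0.059 for 10% IH with control, but at -0.0833, -0.171 and -0.00387 for 5% IH, 10% IH and control with autologous plasma. The Rank Product was computed in Python 3.11.15 over all 4 ratios between arrays of a comparison, with 100 permutations of values within arrays and a 1-sided p in either direction. It is an own implementation of the published method. A model of the 4 groups with no donor term was fitted to the 8 arrays in limma 3.58.1 (R 4.3.3), which gave the standard errors and adjusted p-values. These steps were tested on simulated data.

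The named genes were the 8 genes with every probe set, members of fixed pathway and cell marker lists as examples, and the 8 genes of the most similar profile. The genes and lists were chosen with earlier results of these data known. Promoters were RefSeq sequences of GRCr8, searched on both strands and matched by symbol. The alternatives were a filter under the 40th percentile of mean level, renewed quantile normalization, median centring, probe sets averaged per gene, ratios within donor or donor in the fit, limma p in place of the Rank Product, fits on 2 groups alone, robust moderation with an intensity trend, and leaving out each array. The dimmer probe set of the 5 genes with 2 was added after seeing the data.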

Additional observations from a re-analysis of the deposited data

Results flagged for a closer look

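Sqle and Idi1 had ratios to control plasma of opposite sign with the 2 IH plasmas. On the brightest probe sets, none of these ratios to control plasma met the study's criterion. Both IH comparisons share the control arrays, and the share of all genes with such opposite signs was not counted. The ratio of Sqle to control plasma was above 0 in both donors with 5% IH plasma (0.22 and 0.28) and below 0 in both with 10% IH plasma (-0.16 and -0.22), a difference of 0.43 on the log2 scale. For Idi1 the ratios were 0.17 and 0.20 with 5% IH plasma and -0.06 and -0.17 with 10% IH plasma, a difference of 0.29. The difference itself is the comparison of 5% IH with 10% IH plasma, in which both genes met the study's criterion and neither passed limma (adjusted p = 0.981 for each).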

How the results depend on the processing

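Donor as a replicate block left the criterion counts at 6, 3 and 4 of 7 genes for 5% IH, 10% IH and control against autologous plasma, 3 for 5% against 10% IH and 0 for each IH plasma against control. In the blocked limma fit Idi1 was lost and 2 genes, Sqle and Cyp51, passed for 5% IH against autologous plasma, and 1 for control against autologous plasma. With the dimmer probe set of the 5 genes with 2, criterion counts were 1 for 5% IH against control (Idi1), 1 for 10% IH against control (Srebf2, whose ratio turned to -0.29), 3 for 5% IH and 2 for control against autologous plasma, and median log2 ratios to autologous plasma were 0.21, 0.15 and 0.09 for 5% IH, 10% IH and control. Averaging the probe sets per gene gave 2 for control against autologous plasma. The limma count for control against autologous plasma was 0 with the arrays of these groups alone, 2 with the filter on dim probe sets and 3 with the intensity trend, and that for 10% IH against autologous plasma was 1 with the trend.

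With 1 array left out, the criterion count was 3 to 6 for 5% IH, 2 to 4 for 10% IH and 3 to 4 for control against autologous plasma, 1 to 2 for 5% against 10% IH, and 0 to 1 for each IH plasma against control. The limma count was 1 to 3 for 5% IH against autologous plasma, at 1 (Sqle) without the 5% IH BN1, 5% IH BN2 or autologous BN2 array, and 0 to 1 for control against autologous plasma, at 0 without the control BN1, control BN2 or autologous BN2 array. The median log2 ratio was 0.29 to 0.46 for 5% IH, 0.17 to 0.34 for 10% IH and 0.27 to 0.33 for control against autologous plasma, 0.02 to 0.20 for 5% against 10% IH, -0.10 to 0.04 for 10% IH against control and 0.12 to 0.15 for 5% IH against control. Nr1h2, lower with 5% than 10% IH plasma by the criterion, had -0.65 to 0.00 with 1 array left out, 0.00 without the 10% IH BN1 array. A lone array is assumed to vary like the other groups. The causes of these changes were not tested beyond what each setting leaves out.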

Other observations

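Genes of sterol efflux and of fatty acid synthesis were measured on the same arrays. Abca1, the transporter that passes cholesterol to lipoproteins and a target of the sterol-sensing liver X receptors, had log2 levels of 8.43 and 8.67 with 5% IH plasma, 7.95 and 8.35 with 10% IH plasma, 8.03 and 8.30 with control plasma, and 5.11 and 5.80 with autologous plasma. Its log2 ratios to autologous plasma were 3.10, 2.70 and 2.71 for 5% IH, 10% IH and control plasma (limma adjusted p = 9.53e-05, 0.000297 and 0.000281). It was also higher by the criterion with 5% IH than with control plasma (0.38, lost without the 5% IH BN2 array at 0.26 or the control BN1 array at 0.25) and than with 10% IH plasma (0.40, lost without the 5% IH BN2 array at 0.28 or the 10% IH BN1 array at 0.20), and neither call held with limma's unadjusted p in place of the Rank Product. Nr1h3, which encodes a liver X receptor, had ratios to autologous plasma of 1.12, 1.12 and 0.78 in the same order of plasmas. Its ratio to control plasma was 0.34 with each IH plasma, and the 10% IH call was lost without the 10% IH BN2 array (0.28). Nr1h3 was dim on every array, with a highest log2 level of 5.44, under the array medians of 5.53 to 5.56. Abcg1 was higher with 10% IH (0.34) and control plasma (0.48) than with autologous plasma, and its 10% IH call was lost without the autologous BN1 array (0.18) or the 10% IH BN2 array (0.27). With the mean of its probe sets neither ratio met the criterion (0.23 for 10% IH and 0.24 for control plasma). Nr1h2 was higher with 10% IH than with control (0.41) and autologous plasma (0.35), where the 10% IH BN1 array carried the difference (0.09 and 0.03 without it) and where neither call held with the mean of its probe sets (0.21 and 0.15), and Apoe was called in no comparison. Both Abca1 and Nr1h3 are known to be expressed in monocytes and macrophages. Monocyte markers were low with autologous plasma, and the part of this in the values of Abca1 and Nr1h3 was not tested.

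Of 10 genes of fatty acid synthesis, which SREBP-1 is known to control, 2 were lower with 10% IH than with control plasma by the criterion. These were Acss2 and Scd (-0.29 each), where 2.26% of all genes were lower. Scd was dim, at log2 levels of 4.73 to 5.27, under the array medians of 5.53 to 5.56. Acss2 lost the call without the 10% IH BN2 array (-0.16) or the control BN1 array (-0.13), and Scd without the same arrays (-0.27 and -0.14). The Acss2 call was also lost with limma's unadjusted p in place of the Rank Product. Against autologous plasma 1 of 10 was called with each plasma, Me1 with 5% IH (0.42) and 10% IH plasma (0.43) and Scd with control plasma (0.28). Over all genes, 6.24%, 5.39% and 6.16% were higher and 4.18%, 3.62% and 3.97% lower with 5% IH, 10% IH and control plasma. A count of 1 in 10 is near these shares. The Me1 ratios were 0.76 and 0.91 in BN1 cells but 0.07 and -0.05 in BN2 cells, and both calls were lost without the autologous BN1 array (0.16 and 0.17), the 5% IH call also without the 5% IH BN1 array (0.33) and the 10% IH call without the 10% IH BN1 array (0.21), and both with limma's unadjusted p. With the mean of its probe sets Me1 had 0.79, 0.71 and 0.69 for 5% IH, 10% IH and control plasma. The Scd call was lost without the control BN1 array (0.13) or the autologous BN2 array (0.17) and on median centring (0.26).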
